A study of Mus musculus with 20 samples.

Results

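Livers of wild-type mice given an antagonist of Toll-like receptors 7 and 9 were compared with livers of wild-type mice given none, across all genes that could be measured on the array. The comparison takes 5 treated and 5 untreated arrays, chosen by their titles, out of 20 in the series. A probe was included where the detection p-value deposited beside its signal was under 0.05 on 5 or more of these 10 arrays, and 15667 of 45281 probes met that rule. They stand for 9228 named genes (13615 probes with 1 gene symbol), and the other 2052 probes have no single symbol in the annotation used.

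Both groups were male C57BL/6 mice on a high fat diet (35% fat and 0.03% cholesterol) whose livers were collected at 14 weeks of age. The treated mice had intraperitoneal injections of the antagonist at 15 mg/kg, 3 times a week, between weeks 6 and 11, so dosing had stopped before collection. The untreated mice had no antagonist, and the labels name no vehicle injection for them. The remaining 10 arrays are livers of treated and untreated ApoE-/- mice on another high fat diet (21% fat and 0.15% cholesterol), used here to ask where the wild-type response differed. All 20 arrays also share the normalization and the estimate of spread behind the wild-type tests, and with the wild-type arrays alone 6592 probes were called, against 6748 as reported below.

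Toll-like receptors 7 and 9 sit in endosomes and sense single-stranded RNA and unmethylated CpG DNA. They signal through the adaptor MYD88 and IRAK kinases to NF-kB and to interferon regulatory factors, which switch on cytokine, chemokine and interferon-stimulated genes. In liver these receptors are found mainly in Kupffer cells, the resident macrophages of the sinusoids, and in dendritic cells, B cells and other immune cells. Hepatocytes make up most of the tissue and carry out its lipid, glucose, bile acid and drug metabolism.

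The arrays of the 2 groups stood clearly apart. After normalization the correlation over the included probes was 0.98 to 0.992 between treated arrays and 0.976 to 0.989 between untreated arrays, but 0.919 to 0.952 between a treated and an untreated array. The number of probes detected was 17218 ± 1124 on treated arrays and 15167 ± 604 on untreated arrays (SD, n = 5 each, exact two-sided permutation p = 0.00794, the smallest p 5 against 5 arrays allow), and it was higher in both array batches. Batch 1 holds replicates 1 to 3 and batch 2 replicates 4 and 5 of each group, as read from the form of the column names, and values within a batch are given beside the called genes whose change was over 1.5 times larger or smaller there. All 14 hepatocyte markers were tested, with a summed signal of 227546 to 252065 on treated and 226265 to 251978 on untreated arrays. Of these 1 rose and 1 fell, but 7 were called down with arrays scaled to equal medians of the included probes. Most of the summed signal came from genes among the brightest on the array. Normalization to equal distributions sets the brightest values alike on every array, so near-equal sums were largely fixed in advance. They do not show whether hepatocyte RNA changed.

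Here a level is a normalised log2 signal, a change is the treated minus the untreated mean on that scale ± SE, and a gene was called where limma's Benjamini-Hochberg adjusted p over all 15667 probes was under 0.05. Of these probes 6748 were called (43.1%), 3301 up and 3447 down. By the brightest probe of each gene, 3996 of 9228 genes were called (43.3%), 2195 up (23.8%) and 1801 down (19.5%). These shares are the background against which every count of a gene group below is to be read. The treated and untreated arrays did not overlap for 2951 genes (32.0%), with the treated arrays above for 18.5% and below for 13.5% of all genes.

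Large changes were mostly rises. Changes of at least 2-fold were called for 691 genes up and 256 down, of at least 4-fold for 215 and 37, of at least 8-fold for 65 and 6, and of at least 16-fold for 18 and 1. Over all genes the 5th percentile of the change was -0.78 and the 95th 1.35, as the plot of change against level shows. The detection rule treats the 2 groups alike, but 364 probes were detected on all 5 treated and no untreated arrays and only 7 the other way round. Probes seen in 1 group alone thus entered mostly through the treated arrays. Probes detected on exactly 5 arrays (1054) had a median change of 0.15, and the 1070 left out with 4 had one of -0.03. Scaling the arrays to equal medians in place of equal distributions moved the median change of all included probes to 0.26, against -0.041 here, and scaling them to equal medians of the included probes moved it to -0.176, so small changes can take either direction with the scaling.

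**Figure D1:**
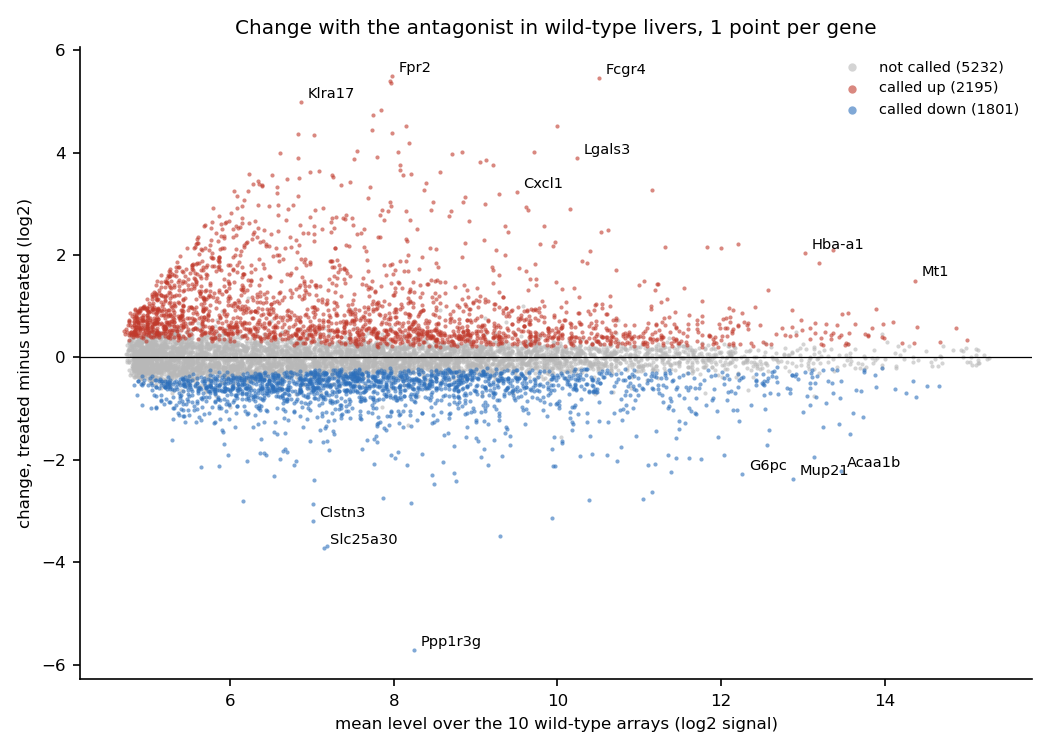
Change with the antagonist (treated minus untreated, log2) against the mean level over the 10 wild-type arrays (log2 signal), 1 point per gene, 9228 genes. Genes called up (2195) and down (1801) are coloured, the labelled genes are described in the text, and more called genes lie beyond 8-fold above 0 (65) than below (6).

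The largest rise was that of Fpr2, a formyl peptide receptor of phagocytes, which had levels of 10.46, 11.12, 10.41, 11.07 and 10.60 on treated arrays, against 4.72, 4.96, 4.97, 5.98 and 5.55 on untreated arrays (change 5.50 ± 0.30, adjusted p = 8.38e-11). Fcgr4, an activating receptor for IgG, had 13.07, 13.64, 12.91, 13.42 and 13.12 on treated arrays, against 7.74, 7.57, 7.50, 7.85 and 8.25 on untreated arrays (change 5.45 ± 0.29, 43.7-fold). In both genes every treated array was far above every untreated one.

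Klra17, a lectin-like receptor of the Ly49 family, lay at 9.23, 9.59, 9.22, 9.61 and 9.17 on treated arrays, against 4.42, 4.53, 4.36, 4.28 and 4.28 on untreated arrays. The untreated arrays gave no detected signal for it, so that only a bound can be given, at least 21.0-fold, with the fold taken against the lowest detected signal of each array. The other rises among the 25 largest ranged from 3.86 to 5.39 and included the C-type lectin genes Clec4a1 (5.39 ± 0.29), Clec4a3 (4.52 ± 0.27) and Clec4b1 (4.00 ± 0.25), and Ccl4 (5.36 ± 0.32), a chemokine for monocytes and T cells. The adaptor gene Fcer1g (4.52 ± 0.27), the membrane protein gene Ms4a6d (4.83 ± 0.28) and the anti-apoptotic genes Bcl2a1d (4.38 ± 0.28) and Bcl2a1b (4.01 ± 0.29) were also among them, as were Ptpn22, a phosphatase of immune receptor signalling (4.36 ± 0.27), and Lgals3, a galectin of activated macrophages (3.90 ± 0.23). Probes for Bcl2a1b and Bcl2a1d, and those for Ly49 and Clec4a genes, may bind transcripts of close relatives. For all 25 the groups did not overlap, and 10 of the 25 were detected on fewer than 5 untreated arrays. Choosing genes by the size of their change favours this separation, which held for 32.0% of all genes.

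Among the endosomal receptors and their partners, which include the antagonist's targets, 8 of 11 genes were tested, of which 5 rose and 1 fell. Tlr7 had 5.85, 6.44, 5.95, 6.51 and 6.45 on treated arrays, against 4.69, 4.84, 4.93, 5.35 and 4.61 on untreated arrays, where 1 of the 5 detected it (change 1.35 ± 0.18, adjusted p = 4.03e-06). Every treated array was above the untreated ones, at levels close to the detection limit. Tlr9, the other target, was not detected on any of the 10 arrays, and Tlr3, a sensor of double-stranded RNA, on 4, so neither was tested. Tlr8, also a sensor of single-stranded RNA, was detected on all 5 treated and no untreated arrays (at least 1.21-fold higher). Tlr13, a sensor of bacterial ribosomal RNA in mice, rose by 1.86 ± 0.22 by its brighter probe and by 0.80 ± 0.21 by the other. Tlr12, a receptor for profilin of apicomplexan parasites, fell by 0.75 ± 0.25 but was not called with equal array medians, nor without treated replicate 4 (or 5) or untreated replicate 1 (or 3).

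Unc93b1, the membrane protein that carries these receptors from the endoplasmic reticulum to endosomes, rose as well. Its levels were 9.03, 9.29, 9.30, 9.48 and 9.16 on treated arrays, against 7.77, 7.56, 7.71, 7.96 and 7.76 on untreated arrays (change 1.50 ± 0.14, 2.83-fold). The other Unc93b1 probe rose less, by 0.70 ± 0.18. Lgmn, an endosomal protease that can cleave these receptors, rose by 1.19 ± 0.13.

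All 9 surface receptors and co-receptors of the family were tested, and 8 rose while 1 fell, with 4 of the 9 detected on 2 or fewer untreated arrays. Tlr2, a receptor for bacterial lipoproteins, had 7.65, 8.06, 7.69, 8.33 and 7.98 on treated arrays, against 5.60, 5.18, 5.43, 6.37 and 6.14 on untreated arrays (change 2.20 ± 0.21). No untreated array detected its partners Tlr1 and Tlr6, which were at least 2.09-fold and 1.24-fold higher. Tlr4, the receptor for lipopolysaccharide, rose by 0.98 ± 0.17, and its co-receptors Cd14 and Ly96 by 1.63 ± 0.22 and 0.52 ± 0.14. Ly86 and Cd180, which form another such complex, rose by 2.40 ± 0.17 and 1.16 ± 0.16. Tlr5, the receptor for flagellin, went the other way, with 6.22, 6.12, 6.64, 6.01 and 6.56 on treated arrays, against 7.98, 8.15, 8.20, 7.90 and 8.36 on untreated arrays (change -1.81 ± 0.18, adjusted p = 9.37e-08). Every treated array was below every untreated one, and Tlr5 was detected on all 10 arrays.

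Of 17 adaptors and kinases that carry the signal onward, 14 were tested, of which 6 rose and 2 fell. Myd88, the adaptor shared by most of these receptors, had 9.72, 10.23, 9.94, 10.19 and 9.77 on treated arrays, against 9.31, 9.08, 9.26, 9.00 and 9.08 on untreated arrays (change 0.82 ± 0.17). Irak3, which restrains the pathway, rose by 2.31 ± 0.29, and Map3k8, a kinase that links it to MAP kinases, by 2.12 ± 0.19. Irak2, a kinase that prolongs the signal, had 7.55, 7.40, 6.97, 7.30 and 7.18 on treated arrays, against 8.67, 8.33, 8.85, 8.65 and 8.48 on untreated arrays (change -1.32 ± 0.19). Irak2 and Irak3 moved in opposite directions, and the groups overlapped in neither. Tbk1, a kinase upstream of interferon regulatory factors, rose by 0.52 ± 0.09, and Tab1, which activates the kinase TAK1, by 0.78 ± 0.23.

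Of 22 NF-kB subunits and feedback genes, 19 were tested, of which 14 rose and none fell, with a median change of 0.76, and 7 of the 19 were detected on 2 or fewer untreated arrays. Nfkbiz, a nuclear coactivator of NF-kB induced by these receptors, rose most, with 9.59, 10.13, 9.77, 10.64 and 10.32 on treated arrays, against 6.67, 6.23, 6.92, 7.13 and 6.48 on untreated arrays (change 3.40 ± 0.21, 10.6-fold). The feedback inhibitors Tnfaip3 and Nfkbia rose by 1.78 ± 0.22 and 0.98 ± 0.15. Of the interleukin-1 group 11 of 16 genes were tested, of which 6 rose and 1 fell. Il1b, the main secreted cytokine of the group, rose by 2.72 ± 0.30, and Casp1 and Pycard, which activate it in the inflammasome, by 2.36 ± 0.18 and 1.88 ± 0.25, whereas Il1rap, a subunit of its receptor, fell by 0.62 ± 0.13.

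Chemokines followed. Of 22 CC chemokines and receptors 10 were tested, of which 6 rose and 1 fell, and of 18 CXC members 9, of which 7 rose. Cxcl1, which attracts neutrophils, had 11.30, 10.69, 11.06, 11.36 and 11.17 on treated arrays, against 8.48, 7.49, 7.87, 7.80 and 7.84 on untreated arrays (change 3.22 ± 0.21, 9.33-fold). Ccl5 and Ccl3, ligands of receptors on T cells and monocytes, rose by 2.45 ± 0.21 and 1.85 ± 0.20, and Cxcl14 by 2.41 ± 0.21. Cxcl9, a target of interferon gamma, rose by 1.16 ± 0.24, with 1.58 in batch 1 and 0.53 in batch 2, while the related Cxcl10 was at 0.27 ± 0.23 (adjusted p = 0.372). Ccl25, a chemokine for gut-homing T cells, fell by 0.49 ± 0.14, although not under equal array medians.

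Markers of cell types other than hepatocytes moved beside these groups. Bulk RNA cannot tell more cells of a type from more RNA per cell. A marker detected on the treated arrays alone could enter the test only through the group in which it is high, so the counts of dim markers that rose partly restate the detection rule. Of 16 resident macrophage markers 13 were tested, of which 8 rose and 2 fell, and their summed signal was 10522 to 13561 on treated and 3725 to 5042 on untreated arrays. Of 18 markers of monocytes and recruited macrophages 13 were tested and 11 rose, with a summed signal of 7827 to 13374 on treated and 1428 to 2130 on untreated arrays. Of the 13 recruited cell markers tested, 6 were detected on 2 or fewer untreated arrays. For neutrophils 8 of 15 were tested and 7 rose, with 5 of the 8 detected on 2 or fewer untreated arrays. The summed signal of the 8 was 2926 to 6805 on treated and 304 to 917 on untreated arrays. Lcn2 was the brightest of the 8 (mean level 9.71) and rose most, by 4.02, so it weighs most in that sum. Elane was at 0.01 (adjusted p = 0.965), and Mpo, Ngp, Mmp8, Mmp9 and Cxcr2 did not meet the detection rule. The part of these cells in the changes of the immune genes above was not tested.

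The resident macrophage markers did not move as one. C1qb, a subunit of complement C1q that Kupffer cells secrete, had 11.40, 11.84, 11.37, 11.92 and 11.49 on treated arrays, against 8.85, 8.26, 8.64, 9.04 and 8.72 on untreated arrays (change 2.90 ± 0.19). C1qc (2.56 ± 0.20), the transcription factor gene Spic (2.52 ± 0.20, detected on no untreated array, at least 4.18-fold), the scavenger receptor gene Marco (2.48 ± 0.26), Adgre1, a surface receptor that marks mouse macrophages (1.99 ± 0.19), and Csf1r, the receptor for macrophage growth factor (1.96 ± 0.17), rose as well. Cd163, the haemoglobin scavenger receptor, instead had 6.62, 6.42, 6.31, 6.62 and 7.23 on treated arrays, against 7.82, 7.86, 7.53, 7.57 and 7.71 on untreated arrays (change -1.06 ± 0.20, adjusted p = 0.000274). The groups did not overlap there either, and the change was -0.72 within batch 2, where it was not called (adjusted p = 0.0594). Timd4, a phosphatidylserine receptor of long-lived Kupffer cells, was also lower (-0.86 ± 0.21), but no longer called once arrays had equal medians. The Kupffer cell genes Vsig4 and Folr2, detected on all 10 arrays, were at 0.02 ± 0.15 (adjusted p = 0.923) and 0.33 ± 0.18 (adjusted p = 0.141), and Vsig4 turned to the other sign with arrays scaled to equal medians of the included probes. Clec4f, another such gene detected on all 10 arrays, was at -0.26 (adjusted p = 0.295).

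Among markers of recruited and lipid-laden macrophages, Lpl, lipoprotein lipase, rose by 2.88 ± 0.23, Itgax, the CD11c integrin chain, at least 4.04-fold from no detection on untreated arrays, Gpnmb by 1.94 ± 0.35 and Trem2, a lipid-sensing receptor, by 1.79 ± 0.27. The monocyte markers Itgam and Ccr2 were detected on 1 and none of the 10 arrays and were not tested. Of the neutrophil genes, S100a9, a calcium-binding protein, had 8.34, 9.32, 7.91, 9.00 and 8.20 on treated arrays, against 6.34, 4.54, 5.58, 6.78 and 6.28 on untreated arrays (change 2.65 ± 0.39). The neutrophil granule genes Ltf and Camp were detected on all treated and no untreated arrays, at least 1.67-fold and 1.11-fold higher, with the call for Camp lost when the arrays were scaled to equal medians of the included probes.

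**Figure D2:**
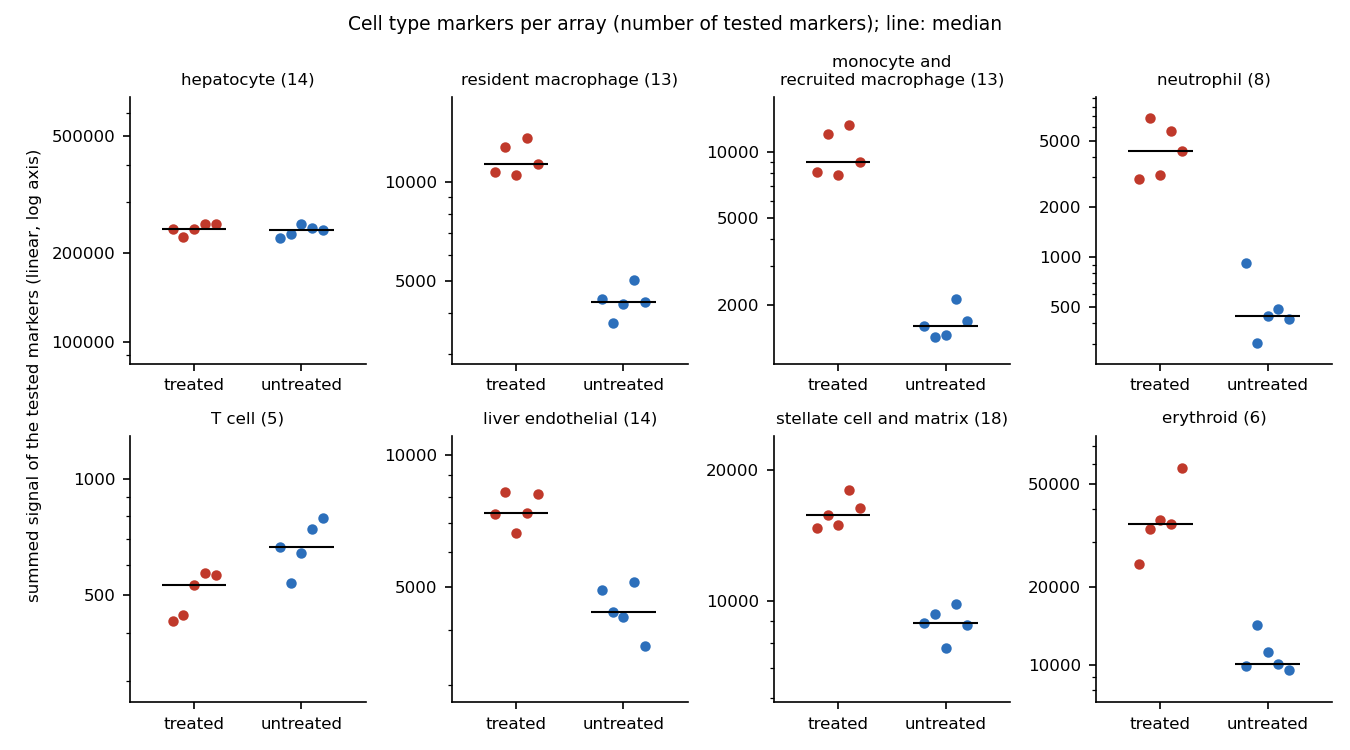
Summed normalised signal (linear scale, log axis) of the tested markers of 8 cell types on each array, with the 5 treated arrays left of the 5 untreated ones in each panel and a line at each group's median. The 2 groups overlap for hepatocyte markers and for T cell markers, and the treated arrays lie above all untreated arrays for resident macrophage, recruited macrophage, neutrophil, endothelial, stellate cell and matrix, and erythroid markers. The normalization holds the hepatocyte sums nearly alike, as given in the text. Lcn2, the brightest neutrophil marker, weighs most in the neutrophil sum.

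Lymphocyte markers were mostly near the detection limit. Of 15 T cell markers 5 were tested, of which 4 rose and 1 fell (4 of the 5 were detected on 2 or fewer untreated arrays), and the summed signal was 430 to 571 on treated arrays and 538 to 794 on untreated arrays, because Cd8b1, a subunit of the CD8 co-receptor and the brightest of them, fell by 0.91 ± 0.15 by its brighter probe and rose by 0.94 ± 0.18 by the other. Thy1 and Cd3d rose by 1.33 ± 0.17 and 0.99 ± 0.22. Cd4 was detected on 2 and Cd8a on none of the 10 arrays. Cd79b, part of the B cell receptor, rose by 2.62 ± 0.26, but 5 of 7 tested B and plasma cell markers were not called and Ms4a1 was detected on 2 untreated arrays alone.

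Of 15 endothelial markers 14 were tested and 8 rose. Egfl7, a secreted factor of endothelial cells, had 10.16, 10.71, 10.57, 10.79 and 10.96 on treated arrays, against 8.07, 8.0, 7.92, 8.48 and 7.94 on untreated arrays (change 2.56 ± 0.13, adjusted p = 5.58e-11). Pecam1, which is also made by leukocytes and platelets, rose by 2.14 ± 0.18, and the sinusoidal markers Lyve1 and Stab2 by 1.90 ± 0.25 and 0.94 ± 0.17. Stab1, another sinusoidal marker, was at -0.35 ± 0.14 by its brightest probe (adjusted p = 0.0548), at 0.43 and 0.92 by its other probes, and above 0 by the brightest with arrays scaled to equal medians. The sinusoidal markers Clec4g, Oit3 and Gpr182 were not called either, at 0.23, 0.39 and 0.41 (adjusted p = 0.103, 0.0545 and 0.0541). Of 24 stellate cell and matrix genes 18 were tested and 14 rose (9 with equal medians of the included probes), among them Vim, an intermediate filament of mesenchymal cells and leukocytes (2.35 ± 0.25), and the collagen genes Col4a1 (1.47 ± 0.16) and Col3a1 (1.41 ± 0.16). Those not called were Col1a1 at 0.32 ± 0.20 (adjusted p = 0.197) and the markers Lrat at 0.30 (adjusted p = 0.0704), Des at 0.09 (adjusted p = 0.687) and Rgs5 at 0.68 (adjusted p = 0.0664).

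Gene groups of the cytoskeleton, Fc receptors, phagocyte oxidase, adhesion, lysosomes and glycolysis had more rises than falls. Which cells these changes came from was not tested. All 22 tested of 26 actin, actin-binding and tubulin genes rose, with a median change of 1.96 and no treated array overlapping an untreated one for 21 of them. Coro1a, a coronin of leukocytes, rose by 3.97 ± 0.27. Tmsb4x, which sequesters actin monomers, averaged 13.31 ± 0.27 on treated and 11.09 ± 0.18 on untreated arrays (SD, n = 5 each, change 2.22 ± 0.15, 4.67-fold). Actb rose by 0.97 ± 0.13 by its brightest probe, but its 5 probes were at odds: 3 rose by 0.86 to 1.53 and the other 2 fell by 2.02 ± 0.40 and 2.05 ± 0.36, the same in both batches. Where these probes lie in the transcript was not analysed here.

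Of 18 Fc receptors and genes of their signalling 15 were tested and 14 rose, with a median change of 2.14, and 6 of the 15 were detected on 2 or fewer untreated arrays. Beside Fcgr4 and its adaptor Fcer1g, the receptor genes Fcgr1 and Fcgr3 rose by 1.77 ± 0.20 and 1.08 ± 0.19, and the adaptor gene Tyrobp by 2.85 ± 0.28. The kinase gene Fgr and the exchange factor gene Vav1, which act below these receptors, rose by 2.95 ± 0.21 and 2.73 ± 0.20, and the kinase gene Syk, detected on no untreated array, at least 1.64-fold. Of the phosphatases that restrain them, Ptpn6 rose by 2.14 ± 0.21 and Inpp5d, detected on no untreated array, at least 2.43-fold.

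All 3 tested genes of the phagocyte NADPH oxidase, Ncf4 (3.15 ± 0.28), Rac2 (2.79 ± 0.23) and Cyba (2.68 ± 0.21), rose, and Cybb, its catalytic subunit, was detected on no array. Of 13 tested leukocyte integrins and adhesion molecules, 5 of them detected on 2 or fewer untreated arrays, 11 rose, led by Cd53 (3.82 ± 0.23) and Selplg, the selectin ligand (3.62 ± 0.28), with Itgb2, the integrin chain shared by CD11 family members, at least 8.41-fold higher. Of 29 tested lysosomal enzymes and membrane proteins 16 rose and 1 fell, and of 14 proton pump subunits 7 rose, or 11 with equal array medians and 3 with equal medians of the included probes. Ctss, a protease of antigen-presenting cells, rose by 2.66 ± 0.16 and Tcirg1, a pump subunit, by 0.98 ± 0.14. Pkm, the pyruvate kinase of cells other than hepatocytes, rose by 3.27 ± 0.22 (9.63-fold), the largest change among 16 tested genes of glycolysis and the pentose phosphate pathway, of which 9 rose.

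The promoters of 2 of the Fc receptor and signalling genes that rose are shown. Both hold the sequence bound by PU.1, the transcription factor that governs myeloid genes. Promoter windows run from 250 bases before to 50 after the annotated start (RefSeq, build GRCm38.p6), and capitals mark the letters GAGGAAGT on either strand. Fcgr4 is at chr1:171018676-171018975 (plus strand), and its match lies 24 bases before the start. Vav1 is at chr17:57278850-57279149 (plus strand), with its match 11 bases before the start.
Fcgr4: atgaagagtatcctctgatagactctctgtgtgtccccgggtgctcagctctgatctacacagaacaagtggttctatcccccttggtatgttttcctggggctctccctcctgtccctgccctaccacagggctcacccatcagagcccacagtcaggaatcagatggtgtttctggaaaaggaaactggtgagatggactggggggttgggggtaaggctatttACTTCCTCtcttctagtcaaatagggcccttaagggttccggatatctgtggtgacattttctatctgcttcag
Vav1: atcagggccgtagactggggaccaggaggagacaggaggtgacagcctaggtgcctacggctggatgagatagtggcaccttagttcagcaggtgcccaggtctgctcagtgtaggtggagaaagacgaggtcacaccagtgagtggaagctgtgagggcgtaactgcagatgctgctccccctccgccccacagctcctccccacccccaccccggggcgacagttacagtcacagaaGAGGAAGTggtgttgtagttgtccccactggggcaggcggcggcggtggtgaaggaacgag
The letters occur in 3 of the 12 tested Fc receptor and signalling genes with a window in the table, in 1 of 10 resident macrophage markers and in 2 of 11 markers of recruited macrophages, against 3.69% of all 27025 genes. A match is a description of the sequence and does not show binding.

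Interferon genes rose, with exceptions. Of 34 type I interferon-stimulated genes 25 were tested and 18 rose, with a median change of 0.89 and none called down. Ifi27l2a rose by 2.25 ± 0.16, Mx2, an antiviral GTPase, by 2.13 ± 0.20, and Oas2, detected on no untreated array, at least 1.79-fold. Ifit3, an antiviral protein that binds signalling complexes, had 10.04, 10.61, 10.21, 10.62 and 10.77 on treated arrays, against 9.17, 8.65, 8.47, 9.36 and 9.53 on untreated arrays (change 1.41 ± 0.19, and 0.57 by its other probe). Rsad2, which encodes viperin, had 8.60, 9.19, 8.61, 8.74 and 9.13 on treated arrays, against 8.27, 7.42, 7.36, 8.10 and 8.0 on untreated arrays (change 1.02 ± 0.20). Neither gene's groups overlapped. Isg15, a ubiquitin-like modifier, was at 0.49 ± 0.20 (adjusted p = 0.0513).

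Of 7 tested interferon regulatory factors 5 rose. Irf1, an activator induced by interferons, had 10.41, 10.45, 10.69, 10.41 and 10.58 on treated arrays, against 8.93, 8.98, 8.92, 8.96 and 9.12 on untreated arrays (change 1.53 ± 0.15). Irf7, the factor that endosomal receptors use to induce interferon, rose by 1.43 ± 0.19 and Irf8, a factor of myeloid and dendritic cells, by 1.22 ± 0.14. Of 8 tested interferon-inducible GTPases 3 rose (5 with equal array medians), with Gbp2 at 1.28 ± 0.23, and the median of the 8 was 0.76 in batch 1 and 0.00 in batch 2.

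Promoters of 2 of these genes are shown for the core letters of the interferon-stimulated response element, GAAANNGAA, on either strand and in capitals. Ifit3 is at chr19:34583279-34583578 (plus strand) and holds 3 matches, which begin 155, 121 and 102 bases before the start. Rsad2 is at chr12:26456403-26456702 (minus strand, printed in the direction of transcription), and its match begins 119 bases before the start.
Ifit3: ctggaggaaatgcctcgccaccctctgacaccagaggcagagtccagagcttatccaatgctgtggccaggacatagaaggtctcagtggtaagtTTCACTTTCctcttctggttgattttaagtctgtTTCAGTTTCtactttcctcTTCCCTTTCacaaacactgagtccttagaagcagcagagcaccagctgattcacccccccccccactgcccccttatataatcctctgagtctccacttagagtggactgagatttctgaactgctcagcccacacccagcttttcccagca
Rsad2: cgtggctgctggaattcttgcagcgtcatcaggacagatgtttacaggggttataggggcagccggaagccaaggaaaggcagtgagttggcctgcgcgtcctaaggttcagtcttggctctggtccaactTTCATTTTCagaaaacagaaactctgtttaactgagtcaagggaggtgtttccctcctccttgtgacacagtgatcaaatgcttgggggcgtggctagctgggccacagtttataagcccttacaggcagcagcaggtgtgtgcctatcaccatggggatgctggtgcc
Of the 17 tested interferon-stimulated genes with a window 12 hold the core, and of 7 interferon regulatory factors 1, against 9.76% of all genes.

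Antigen presentation differed between the batches. Of 7 tested class II genes 6 rose, with a median change of 0.91, but of 1.21 in batch 1 and 0.14 in batch 2. H2-Ab1, the beta chain of I-A, had 10.39, 9.99, 10.17, 10.07 and 9.82 on treated arrays, against 9.01, 8.76, 8.51, 9.81 and 9.81 on untreated arrays (change 0.91 ± 0.22). Untreated replicates 4 and 5 thus lay close to the treated arrays, while untreated replicates 1 to 3 lay well below. The change of H2-Ab1 by this probe, its brightest, was 1.42 in batch 1 and 0.14 in batch 2. Its other probes were not called, at 0.32 (adjusted p = 0.126) and 0.41 (adjusted p = 0.163). Both were below 0 in batch 2, at -0.28 and -0.38. H2-DMb1 and H2-DMa, which load peptides, rose by 1.25 ± 0.20 and 1.05 ± 0.21, with 0.66 and 0.61 in batch 2, where neither was called. Of 17 tested genes of class I presentation 8 rose and 1 fell (5 and 3 with equal medians of the included probes), with the heavy chain gene H2-D1 at 0.74 ± 0.10.

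**Figure D3:**
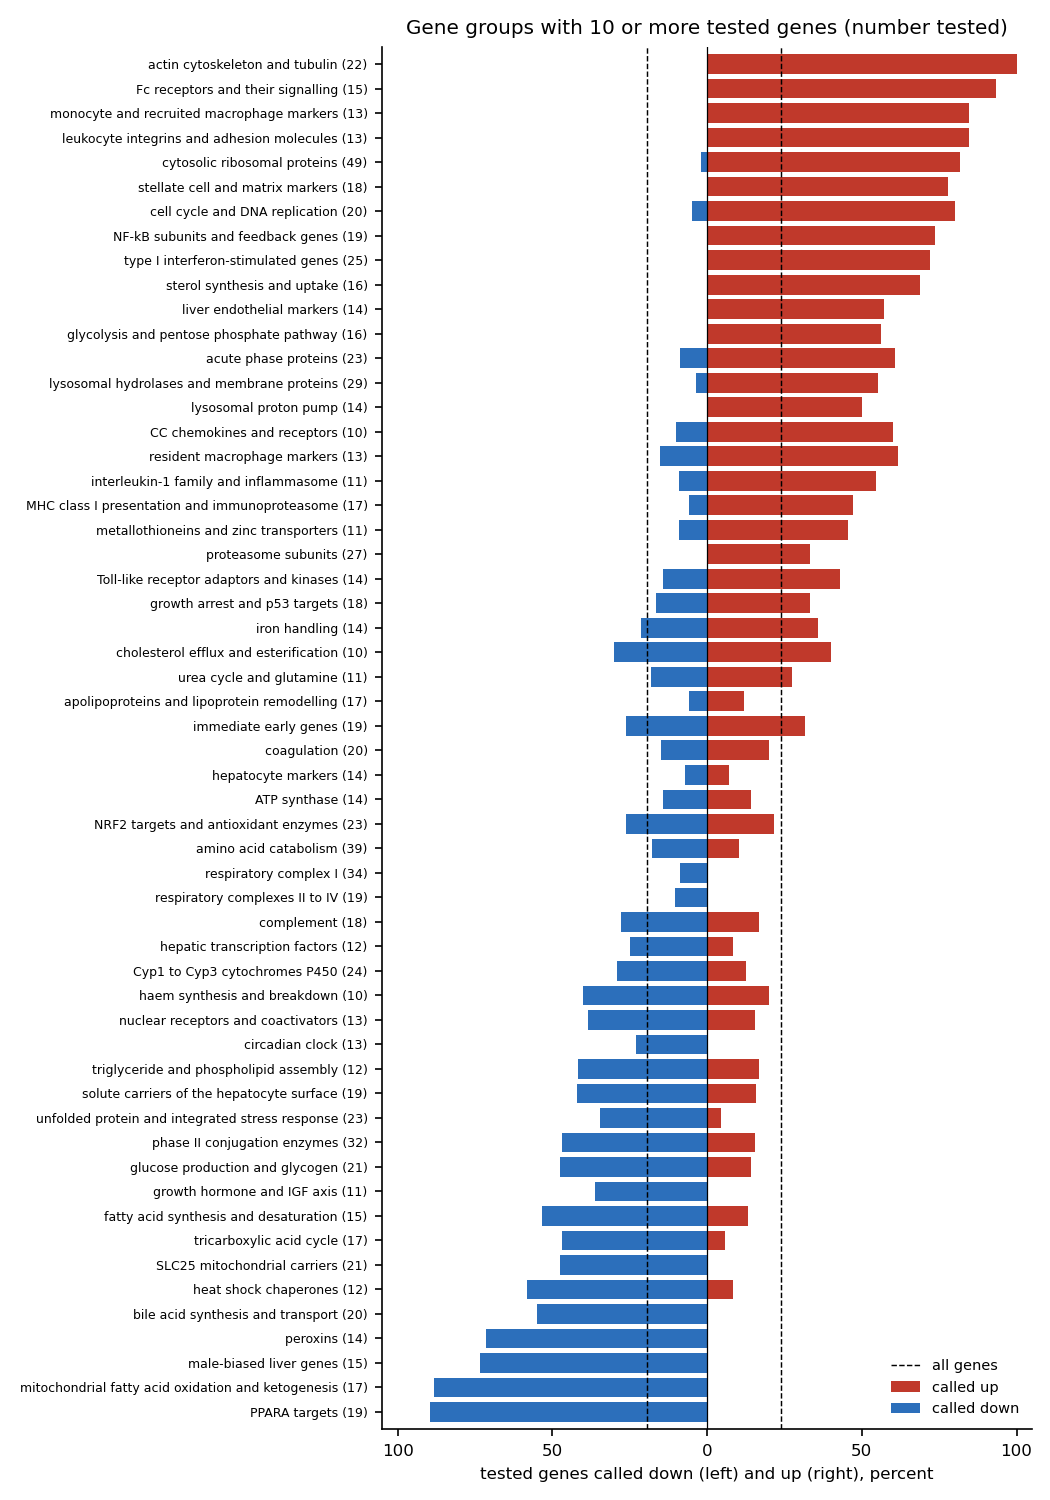
Share of the tested genes of each group with 10 or more tested genes that were called up (right) and down (left, in percent of the tested genes, whose number stands beside each name), with dashed lines at the shares over all genes (23.8% up and 19.5% down). Actin and tubulin (22 of 22) and Fc receptor genes (14 of 15) reach furthest up, and of the falls PPARA targets (17 of 19) and fatty acid oxidation (15 of 17) reach furthest, while groups with small changes move with the scaling, as given in the text.

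Acute phase proteins, which hepatocytes secrete in response to interleukin-6 and related cytokines, rose in 14 of 23 tested genes, and 2 fell. Saa3, a serum amyloid made by macrophages and other cells, had 9.96, 10.39, 9.87, 9.64 and 9.57 on treated arrays, against 7.45, 6.99, 6.72, 6.76 and 7.12 on untreated arrays (change 2.88 ± 0.35). Socs3, the feedback inhibitor of interleukin-6 signalling, rose by 2.85 ± 0.27, Apcs, serum amyloid P, by 2.49 ± 0.22 and Orm2, an acid glycoprotein, by 2.08 ± 0.28. Saa1 had 12.86, 13.29, 12.99, 12.87 and 12.55 on treated arrays, against 13.23, 9.34, 11.95, 9.58 and 9.65 on untreated arrays (change 2.16 ± 0.56). The other Saa1 probe was at 1.11 ± 0.55 and not called (adjusted p = 0.112). By the brighter probe the change was 3.09 in batch 2 and 1.54 in batch 1, where it was not called (adjusted p = 0.0971). Untreated replicate 1 was as high as the treated arrays, and that array was the highest untreated one for 13 of the 23 genes.

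Of 18 tested complement genes 3 rose and 5 fell, with Cfp, properdin, which leukocytes make, at 1.70 ± 0.18 and C9, a pore-forming subunit, at -0.62 ± 0.19. Of 20 tested coagulation genes 4 rose and 3 fell. With arrays scaled to equal medians of the included probes 11 and 12 of these 2 groups were called down.

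Metallothioneins, small proteins that bind zinc and copper, rose. Mt1 had 14.85, 14.98, 15.22, 15.26 and 15.30 on treated arrays, against 13.74, 13.90, 13.69, 13.76 and 13.01 on untreated arrays (change 1.50 ± 0.14, 2.83-fold). Mt2 had 8.19, 7.81, 8.24, 8.86 and 8.75 on treated arrays, against 6.13, 5.98, 6.48, 6.11 and 4.64 on untreated arrays (change 2.50 ± 0.34). The lowest array in each gene was untreated replicate 5. Their promoters are shown because the 2 genes are neighbours on 1 chromosome, both rose, and both hold the metal response element letters TGCACNC (either strand, capitals). Mt1 is at chr8:94178839-94179138 and Mt2 at chr8:94172368-94172667, both on the plus strand.
Mt1: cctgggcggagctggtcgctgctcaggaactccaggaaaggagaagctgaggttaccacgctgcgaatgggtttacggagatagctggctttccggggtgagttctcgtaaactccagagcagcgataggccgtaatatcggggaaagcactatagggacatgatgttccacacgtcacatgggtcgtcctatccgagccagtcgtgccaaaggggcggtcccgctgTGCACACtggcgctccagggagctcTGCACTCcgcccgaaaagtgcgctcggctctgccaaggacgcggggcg
Mt2: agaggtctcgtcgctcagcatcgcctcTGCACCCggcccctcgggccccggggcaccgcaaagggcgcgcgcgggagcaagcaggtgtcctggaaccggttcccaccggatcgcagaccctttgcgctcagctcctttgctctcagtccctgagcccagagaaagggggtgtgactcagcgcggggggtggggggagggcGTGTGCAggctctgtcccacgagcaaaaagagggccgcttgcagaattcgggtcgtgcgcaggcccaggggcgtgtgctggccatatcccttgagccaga
The letters occur in 4 of 10 tested genes of the metallothionein and zinc transporter list with a window, against 14.2% of all genes.

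Genes of iron and haem moved in both directions. Of 10 tested genes of haem synthesis and breakdown 2 rose and 4 fell, and of 14 of iron handling 5 rose and 3 fell. With equal medians of the included probes these counts were 2 and 6, and 4 and 7. Hmox1, haem oxygenase 1, which breaks haem down in macrophages, had 8.78, 9.71, 9.48, 9.75 and 9.47 on treated arrays, against 6.62, 6.32, 6.66, 6.56 and 6.29 on untreated arrays (change 2.95 ± 0.26, 7.71-fold). Slc11a1, the iron transporter of phagosomes, rose by 2.45 ± 0.19 and Blvra, the next enzyme of haem breakdown, by 1.08 ± 0.19. Alas1, the first enzyme of haem synthesis in liver, was at -1.30 ± 0.24, and Cpox, a later one, at -1.54 ± 0.18. Tfrc, the transferrin receptor gene, rose by 1.17 ± 0.22. The globin gene Hba-a1 had 13.52, 13.88, 14.14, 13.96 and 14.74 on treated arrays, against 11.71, 12.40, 12.22, 11.93 and 11.83 on untreated arrays (change 2.03 ± 0.29). Of 6 tested erythroid markers 3 rose, namely both globin genes among these 6 and Slc4a1, the anion exchanger of red cells (2.38 ± 0.27, detected on 1 untreated array). Alas2, which starts the haem pathway in red cell precursors, fell by 0.55 ± 0.13 (adjusted p = 0.00192, not called with equal array medians), and Klf1 and Epor, a transcription factor and the erythropoietin receptor of those precursors, were at 0.15 ± 0.20 (adjusted p = 0.566) and 0.14 ± 0.16 (adjusted p = 0.495), with the sign of Epor turned under equal medians of the included probes.

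**Figure D4:**
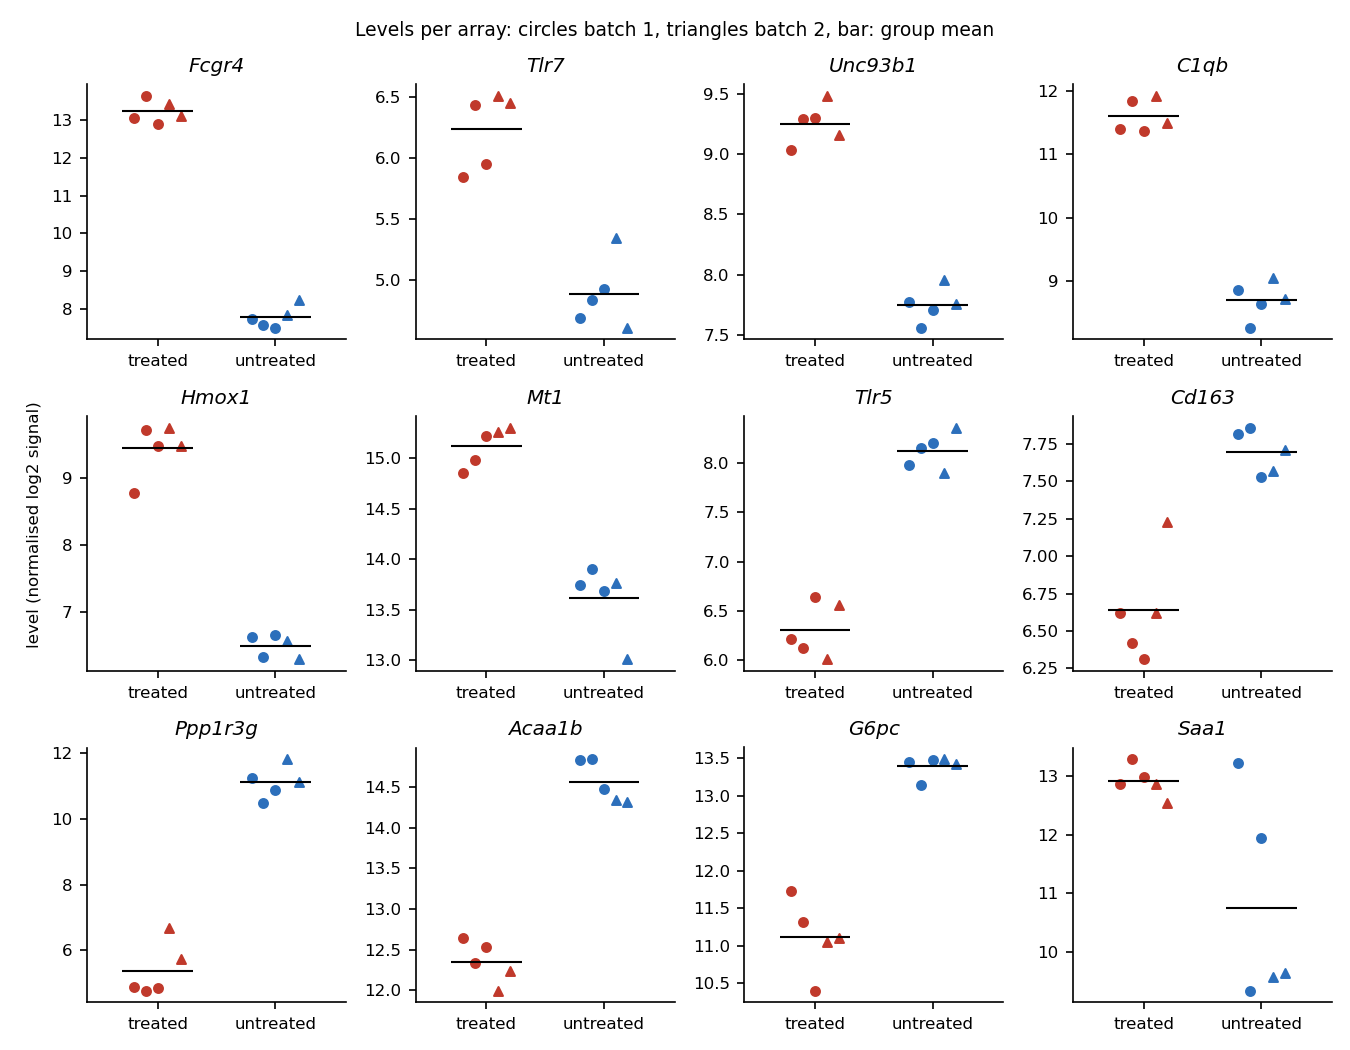
Levels (normalised log2 signal) of 12 genes on each array, the 5 treated arrays left of the 5 untreated ones, with circles for batch 1 and triangles for batch 2 and a bar at each group's mean. The groups do not overlap for Fcgr4, Tlr7, Unc93b1, C1qb, Hmox1, Mt1, Tlr5, Cd163, Ppp1r3g, Acaa1b and G6pc, and they overlap for Saa1.

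The largest fall was that of Ppp1r3g, which targets protein phosphatase 1 to glycogen and had 4.88, 4.77, 4.87, 6.69 and 5.73 on treated arrays, against 11.25, 10.48, 10.89, 11.82 and 11.13 on untreated arrays (change -5.72 ± 0.35, 52.8-fold). Its second probe fell by 2.10. The treated levels of the brighter probe were mostly close to the detection limit, so its fold is imprecise. Slc25a30, a mitochondrial carrier, had 6.04, 5.53, 5.03, 5.13 and 4.71 on treated arrays, against 8.51, 7.90, 8.48, 10.23 and 9.91 on untreated arrays (change -3.72 ± 0.40). The untreated arrays of batch 2 were higher than those of batch 1 there, so that the change was -2.76 in batch 1 and -5.15 in batch 2. Moxd1, a monooxygenase, varied widely within both groups, with 8.88, 4.42, 4.36, 4.41 and 4.63 on treated arrays, against 10.40, 5.52, 10.24, 9.77 and 9.16 on untreated arrays (change -3.68 ± 1.09), and its groups overlapped. Within batch 1 it was not called (-2.83, adjusted p = 0.105). For 23 of the 25 largest falls (-5.72 to -2.13) the groups did not overlap, against 32.0% of all genes. Here too the choice by size favours separation.

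Targets of PPARA, the receptor that turns on fatty acid use in fasting, had the lowest median change of the 71 gene groups examined. Within batch 2 male-biased liver genes were lower, with a median of -1.97 against -1.53 for PPARA targets. Of 24 such genes 19 were tested and 17 fell, with a median change of -1.91. Ppara itself had 5.03, 5.22, 4.89, 5.10 and 5.53 on treated arrays, against 6.39, 6.35, 6.29, 6.65 and 6.55 on untreated arrays (change -1.29 ± 0.13). Acaa1b, a thiolase of peroxisomal oxidation and among the most abundant transcripts, had 12.64, 12.33, 12.53, 11.99 and 12.24 on treated arrays, against 14.84, 14.85, 14.48, 14.34 and 14.32 on untreated arrays (change -2.22 ± 0.15). Pdk4, the kinase that shuts pyruvate dehydrogenase in fasting, had 6.50, 7.18, 6.03, 6.63 and 6.16 on treated arrays, against 9.70, 8.89, 9.57, 9.49 and 8.60 on untreated arrays (change -2.75 ± 0.42). In all 3 genes the highest treated array was below the lowest untreated one.

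The thioesterase genes Acot1 and Acot3 fell by 2.79 ± 0.35 and 2.84 ± 0.72, but the change of Acot3 was -3.95 in batch 1 and -1.17 in batch 2, where it was not called (adjusted p = 0.172). Ehhadh, a bifunctional enzyme of peroxisomes, fell by 1.93 ± 0.22, the fasting hormone gene Fgf21 by 2.31 ± 0.34, and the droplet genes Plin2 and Cidec by 2.12 ± 0.30 and 2.14 ± 0.45. Cyp4a14, another target, was at -0.63 ± 0.52 (adjusted p = 0.346), with -1.35 in batch 1 and 0.45 in batch 2. Of 17 tested genes of mitochondrial fatty acid oxidation 15 fell, with a median of -0.70, led by Decr1, an auxiliary reductase (-2.03 ± 0.22), Eci1, an isomerase (-1.29 ± 0.11), and Cpt2 (-1.03 ± 0.09). Of 14 tested peroxins, which build peroxisomes, 10 fell and none rose, with Pex11a, which divides them, at -1.91 ± 0.20. With arrays scaled to equal medians 12 and 4 of these 2 groups were called down.

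Glucose and glycogen genes fell in 10 of 21 tested and rose in 3, or in 5 and 3 with equal array medians. G6pc, which releases free glucose, had 11.73, 11.32, 10.40, 11.05 and 11.11 on treated arrays, against 13.45, 13.14, 13.48, 13.49 and 13.43 on untreated arrays (change -2.28 ± 0.20, 4.86-fold). Ppp1r3c, a second glycogen-targeting subunit, rose by 1.75 ± 0.33 where Ppp1r3g fell. Pck1, which commits carbon to glucose synthesis, was at -0.44 ± 0.28 (adjusted p = 0.221). Of 21 tested SLC25 carriers 10 fell and none rose, but with equal array medians 6 fell and 3 rose. Among those that fell were Slc25a25, an ATP-magnesium carrier (-2.03 ± 0.26), and Slc25a42, a coenzyme A carrier (-1.35 ± 0.14).

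Lipid synthesis split. Of 15 tested genes of fatty acid synthesis 8 fell and 2 rose, with Me1, which supplies NADPH, at -1.90 ± 0.19 and Acly, which supplies acetyl-CoA, at 0.66 ± 0.10. Sterol synthesis, in which SREBP2 targets usually rise together, had 11 of 16 tested genes up and none down, with a median of 0.71. Fdps, which makes farnesyl diphosphate, had 12.54, 12.17, 12.46, 12.28 and 11.74 on treated arrays, against 11.05, 10.91, 10.80, 10.78 and 10.83 on untreated arrays (change 1.36 ± 0.25). Mvd, another enzyme of the mevalonate path, rose by 1.39 ± 0.26, and Sqle, squalene epoxidase, by 1.35 ± 0.37.

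The calls for lipoprotein genes depended on the scaling. Of 17 tested apolipoprotein and remodelling genes 2 rose and 1 fell, but 11 were called down and 1 up with arrays scaled to equal medians of the included probes. Among the 14 not called were Apob (-0.25 ± 0.12, adjusted p = 0.106) and Apoe (-0.21 ± 0.25, adjusted p = 0.512). Mttp, which loads lipid onto APOB, had 8.51, 8.34, 8.22, 7.83 and 7.83 on treated arrays, against 9.43, 9.08, 9.50, 9.11 and 9.01 on untreated arrays (change -1.08 ± 0.15), and Vldlr, a receptor for lipoproteins, rose by 1.22 ± 0.29, with 1.95 in batch 2 and 0.73 in batch 1, where it was not called (adjusted p = 0.137). Of 10 tested efflux and esterification genes 4 rose and 3 fell, with Abcg1, a macrophage cholesterol exporter, at 2.11 ± 0.21 and the ester hydrolase genes Ces1d and Nceh1 at -1.17 ± 0.14 and -1.08 ± 0.13. Of 20 tested bile acid genes 11 fell and none rose. Cyp7b1, of the alternative synthesis path and higher in males, had 12.69, 10.75, 11.38, 10.45 and 10.18 on treated arrays, against 13.25, 12.20, 13.12, 13.22 and 13.17 on untreated arrays (change -1.90 ± 0.41, with -1.25 in batch 1 and -2.88 in batch 2), while Cyp7a1, the rate-limiting enzyme of the main path, was at -0.31 ± 0.35 (adjusted p = 0.494).

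Of 15 tested male-biased liver genes 11 fell and none rose, with a median of -1.50. Cyp4a12a, a hydroxylase of fatty acids, had 11.26, 9.16, 10.45, 9.12 and 9.16 on treated arrays, against 12.67, 12.17, 12.44, 12.67 and 12.38 on untreated arrays (change -2.63 ± 0.33). Mup20, a urinary pheromone, had 14.07, 12.37, 13.17, 12.46 and 12.07 on treated arrays, against 14.55, 14.05, 14.59, 14.29 and 14.18 on untreated arrays (change -1.50 ± 0.27). Treated replicate 1 was the highest treated array for 11 of the 15 genes and lay nearest the untreated ones, and the fall was larger in batch 2, as for Cyp4a12b (-2.0 in batch 1 and -4.85 in batch 2). Probes for Cyp4a12 and Mup genes may bind transcripts of close relatives. Ghr, the growth hormone receptor, fell by 1.01 ± 0.14 by its brightest probe and was at 0.05 and -0.82 by its others. Of 5 tested female-biased genes 3 rose and 1 fell.

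Cyp2b9, a female-biased P450, varied widely among the treated arrays, with 4.52, 9.61, 7.22, 9.60 and 10.37 there, against 4.54, 6.27, 4.43, 5.24 and 5.92 on untreated arrays (change 2.98 ± 0.72, but 2.03 within batch 1, where it was not called, adjusted p = 0.0978). Treated replicate 1 was at the level of the untreated arrays, as it was closest to them for the male-biased genes. Cyp17a1, a steroid hydroxylase, rose by 2.85 ± 0.32 with no overlap. Of 24 tested P450 genes of families 1 to 3, 3 rose and 7 fell, with Cyp2f2 at -0.93 ± 0.19 and Cyp3a25 at -0.73 ± 0.12. Of 32 tested conjugation enzymes 5 rose and 15 fell (7 and 9 with equal array medians), with Gstm2, a glutathione transferase, at 1.41 ± 0.14 and Sult5a1, a sulfotransferase, at -1.64 ± 0.25.

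Of 34 tested subunits of respiratory complex I 3 fell and none rose, with a median of -0.04, and of 19 of complexes II to IV 2 fell. When the arrays were scaled to equal medians of the included probes, 25 and 15 of them were called down, so that this group depends on the scaling. Of 49 tested cytosolic ribosomal proteins 40 rose and 1 fell, with a median of 0.47, but 12 rose under that same scaling. Rpl12 rose by 1.00 ± 0.13 and Rpl35 by 0.75 ± 0.11. Of 39 tested genes of amino acid catabolism 4 rose and 7 fell, but 1 and 19 under that scaling. In the urea cycle Cps1, its first enzyme, Ass1 and Arg1 were at 0.68 ± 0.15, 0.65 ± 0.15 and 0.57 ± 0.09, calls lost under that scaling (Cps1 was at 0.42 and not called within batch 2), and Otc, which makes citrulline, fell by 0.87 ± 0.23 by its brighter probe (not called under equal array medians) and was at -0.12 by the other.

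Stress and growth genes changed in both directions. Cdkn1a, the p21 inhibitor of the cell cycle, had 8.82, 9.29, 8.50, 8.86 and 8.55 on treated arrays, against 5.97, 7.69, 6.28, 5.38 and 4.76 on untreated arrays (change 2.78 ± 0.45), while Gadd45a, another growth arrest gene, had 7.08, 7.30, 7.28, 8.13 and 8.23 on treated arrays, against 9.84, 9.19, 9.86, 10.28 and 10.13 on untreated arrays (change -2.26 ± 0.43). Of 20 tested cell cycle genes, 8 of them detected on 2 or fewer untreated arrays, 16 rose and 1 fell, led by the cyclin gene Ccnd2 (3.59 ± 0.26). Of 12 tested heat shock chaperones 7 fell (2 with equal array medians), with Hspb1 at -1.31 ± 0.30, and 1, the collagen chaperone gene Serpinh1, rose by 0.92 ± 0.16. Of 23 tested genes of the unfolded protein and integrated stress response 8 fell and 1 rose, but 4 fell and 6 rose with equal array medians. The chaperone gene Dnajb9 was at -1.27 ± 0.22 and the transcription factor gene Atf4 at 0.77 ± 0.14 by its brighter probe. The other Atf4 probe was at 0.24 and not called (adjusted p = 0.189), with -0.12 in batch 2.

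Of 13 tested clock genes 3 fell, and this count depended on the batch and the scaling. Within batch 1 limma called 7 of them down and within batch 2 none (1 at an unadjusted p under 0.05), with equal array medians 1 and with equal medians of the included probes 6. Per2, a core repressor, had 7.06, 7.28, 7.36, 8.25 and 8.45 on treated arrays, against 8.87, 9.05, 8.55, 8.37 and 8.76 on untreated arrays (change -1.04 ± 0.25), with -1.59 in batch 1 and -0.22 in batch 2. Dbp, a clock output factor, had 7.74, 7.14, 9.57, 10.24 and 11.62 on treated arrays, against 10.80, 10.23, 10.51, 11.14 and 11.38 on untreated arrays (change -1.55 ± 0.64, adjusted p = 0.0576). The time of day of collection was not analysed here. Of 12 tested transcription factors of hepatocytes 3 fell and 1 rose (1 and 2 with equal array medians), with Foxa1, a pioneer factor of liver genes, at -1.48 ± 0.19.

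The most abundant transcripts changed at about the same rate as all genes. Of the 200 genes with the highest mean level 96 were called, 47 up and 49 down. Beside the globins and Mt1 the largest rises among them were those of Fgl1, a secreted fibrinogen-like protein (0.94 ± 0.13), and Dcn, decorin (0.93 ± 0.11), and the largest falls those of Mup21 (-2.38 ± 0.38), Acaa1b and Nudt7, a peroxisomal coenzyme A hydrolase (-1.94 ± 0.23). Where a gene had 2 or more included probes (3172 genes), all were called in the same direction for 793, some for 1153 and none for 1205, and 36 genes had probes called in opposite directions. Among these were Actb, Cd8b1 and Hsd3b2, a steroid dehydrogenase, whose brightest probe rose by 0.75 ± 0.14 (0.44 and not called within batch 2) while others fell by 1.41 ± 0.20 and 1.03 ± 0.19.

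The wild-type response was set against that in ApoE-/- livers by a test of the difference. It was called for 464 of 15667 probes (2.96%) and 321 of 9228 genes (3.48%). The genes named next were chosen for the size of their wild-type change, which enters the difference, so that a smaller change in ApoE-/- livers and a called difference are favoured by the choice itself. Among the 25 largest rises in wild type all were called up in ApoE-/- livers too, and the difference was called for 10 of them. Lgals3 rose by 3.90 ± 0.23 in wild-type livers and by 0.91 in ApoE-/- livers (difference 2.98, adjusted p = 4.05e-05), and Ms4a6d, Bcl2a1d, Cyth4, Ccl4 and Fcer1g differed in the same direction by 2.25, 2.46, 1.92, 2.26 and 1.83. Gpnmb, called up in wild type, had a change of -2.62 in ApoE-/- livers (difference 4.56, adjusted p = 4.05e-05).

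Of the 25 largest falls 18 were called down in ApoE-/- livers too, and the difference was called for 4. Ppp1r3g fell by 5.72 ± 0.35 in wild-type livers, against a change of -1.02 in ApoE-/- livers (difference -4.70, adjusted p = 4.05e-05). G6pc had a change of -2.28 in wild-type and -0.31 in ApoE-/- livers (difference -1.98), and Acaa1b of -2.22 and -0.97 (difference -1.25). For Gadd45a, the other of the 4, the difference was -2.25. Clstn3, a synaptic adhesion protein also made in liver and fat, changed by -3.20 and -3.18 in the 2 genotypes. Wild-type and ApoE-/- mice also differed in diet, and the mean signal of their arrays had been set to different values before deposit, so genotype, diet and array set cannot be told apart in this difference.

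**Figure D5:**
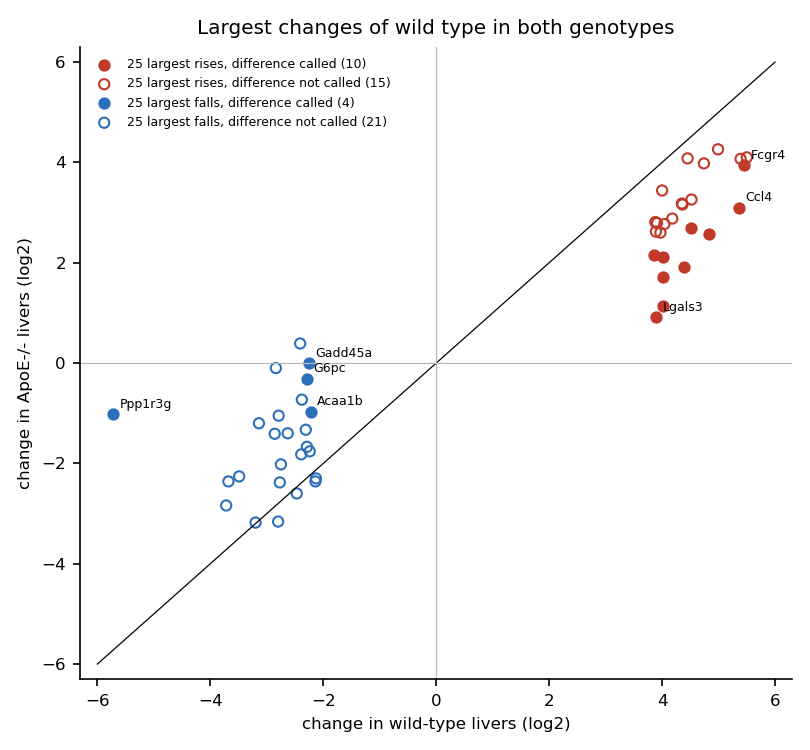
Change with the antagonist (log2) in wild-type livers (horizontal) and in ApoE-/- livers (vertical) for the 25 largest rises and 25 largest falls of wild type, with filled points where the difference between genotypes was called (10 rises and 4 falls) and the diagonal of equal change. Ppp1r3g lies furthest from the diagonal, and the choice of genes by their wild-type change favours points on the ApoE-/- side nearer to 0.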

How the data were processed

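Liver RNA was labelled as biotinylated cRNA, per the labels' protocols, and hybridised to Illumina mouse arrays. The table the authors deposited holds an intensity and a detection p-value per probe and array, which are called non-normalized but whose mean intensity is equal within sets of arrays, so that a scaling had been applied. The software listed by the submitters' processing notes is GenomeStudio and BeadStudio. A second deposited table holds the authors' processed intensity values on a linear scale, used as an alternative. Its centring is not given in the sources used here, and its column medians lay between 103.60 and 103.62.

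The intensities of all 20 arrays were background-corrected, quantile normalized and log2 transformed with limma's neqc (limma 3.58.1, R 4.3.3, offset 16), where detection p-values stood in for negative control spots. Changes were fitted with lmFit and eBayes on 4 group means and adjusted by Benjamini-Hochberg over the 15667 included probes. The fit was also run on simulated data with independent noise and few changed probes. These data differ in both, so that run lends no weight to the calls. A gene is represented by the included probe with the highest mean, and symbols come from GEO's platform annotation (34885 of 45281 probes have 1 symbol, 18 several and 10378 none).

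Genes were named by a rule: a receptor panel, the 25 largest rises and falls, the smallest adjusted p, the leading members of each gene group, the most abundant and the detected in 1 group only, and genes with opposed probes. Further genes, such as Ppara, Alas2, Klf1, Epor, Tlr4, Adgre1, Ifit3, Rsad2, Saa1 and all those given with an adjusted p of 0.05 or more, were chosen after their values were seen. The members and gene groups were chosen with earlier results of these data known.

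Replicates are numbered in the labels, which do not say that they are separate animals, so the p-values cover the spread among these arrays alone, and part of it may be technical. Arrays of the same number deviated together, with correlations of 0.329, 0.301, 0.308, 0.396 and 0.339 between treated and untreated replicates 1 to 5. Arrays of different numbers in the same batch also did in part, with correlations of -0.076 to 0.378 (0.378 for treated 2 with untreated 1 and 0.342 for treated 4 with untreated 5), against -0.37 to -0.052 across batches, so a batch pattern lies in these values beside that of the number. Fits with the number and with the batch as a block were run as alternatives. The number of arrays limits the precision. The fold of a gene detected on no array of a group is a bound, as defined beside the first one. Promoter windows are RefSeq sequences of build GRCm38.p6.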

Additional observations from a re-analysis of the deposited data

Results flagged for a closer look

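Among 201 of the genes named in the text, 1 array stood far from the other 4 of its group (Dixon's gap ratio above 0.71) in 19 of 402 groups of 5 arrays, where chance gives about 1 in 20 groups. The markers Lrat, Des, Rgs5, Clec4g, Oit3, Gpr182, Clec4f and Elane were not among the 201. On treated arrays the levels that stood apart were those of Cpt2 (11.91), Foxa1 (6.41), Ghr (11.51), Ly96 (7.46), Lyve1 (8.19) and Moxd1 (8.88). On untreated arrays they were those of Cd3d (5.15), Clec4b1 (5.11), Cyp7b1 (12.20), Egfl7 (8.48), G6pc (13.14), Hspb1 (7.85), Moxd1 (5.52), Mt1 (13.01), Mt2 (4.64), Slc25a25 (11.19), Slc4a1 (5.15), Stab2 (7.99) and Vldlr (5.47).

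The change with the antagonist differed between wild-type and ApoE-/- livers by limma's test of the difference (adjusted p under 0.05) for 57 of these genes, against 3.48% of all genes. Many of the 201 were named for the size of their wild-type change, which enters the difference, so the 2 shares are not comparable. The difference, wild type minus ApoE-/- on the log2 scale, was above 0 for Gpnmb (4.56), Lpl (3.13), Lgals3 (2.98), Saa3 (2.84), Bcl2a1d (2.46), S100a9 (2.28), Cxcl1 (2.28), Bcl2a1b (2.28), Ccl4 (2.26), Ms4a6d (2.25), Cd53 (2.15) and Socs3 (2.05). It was also above 0, by less, for Trem2 (1.99), Lyve1 (1.95), Cyth4 (1.92), Fcer1g (1.83), Tlr2 (1.81), Hmox1 (1.81), Tyrobp (1.66), Hba-a1 (1.59), Spic (1.55), Cyba (1.55), Fcgr4 (1.51), Nfkbiz (1.46), Map3k8 (1.45), Itgb2 (1.42), C1qb (1.42), Pkm (1.41), Tmsb4x (1.39), C1qc (1.37), Vim (1.30) and Tnfaip3 (1.26). The smallest differences above 0 were those of Ctss (1.20), Col3a1 (1.19), Ly86 (1.17), Lgmn (1.15), Col4a1 (1.11), Slc11a1 (1.08), Pecam1 (1.02), Ifi27l2a (0.97), Mt1 (0.82), Irf8 (0.80), Rpl12 (0.70), Egfl7 (0.69) and Apob (0.65). The difference was below 0 for Ppp1r3g (-4.70), Gadd45a (-2.25), Slc25a25 (-2.05), G6pc (-1.98), Sult5a1 (-1.30), Acaa1b (-1.25), Cd163 (-1.23), Me1 (-1.16), Pex11a (-1.06), Ces1d (-1.05), Ppara (-0.84) and Cpt2 (-0.54). Gpnmb had a change of 1.94 in wild-type and -2.62 in ApoE-/- livers, and both changes were called. Genotype and diet cannot be told apart in these differences.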

How the results depend on the processing

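Of the same 201 genes 187 were called, and all 187 kept their direction under every alternative in which they were present. Of these 161 also kept their call under every one, and with 1 array left out the call was lost for 1, Tlr12 (without treated replicate 4 or 5 or untreated replicate 1 or 3). The number of probes called, 6748, ranged from 6056 to 6616 with 1 array left out (3004 to 3267 up and 3050 to 3349 down) and was 7717 with the replicate block, which pairs arrays by number and changed no call among the 187. The split by direction depended on the scaling. Arrays scaled to equal medians gave 6075 up and 1073 down, no between-array normalization 6457 up and 1050 down, and arrays scaled to equal medians of the included probes, an alternative chosen after seeing the data, 2489 up and 5041 down, and the cause was not tested. Within batch 1, with 3 arrays a group, 5 of the 187 genes lost their call, and within batch 2, with 2 arrays a group, 16. Within batch 2, 2263 were called down. Over all arrays, a smaller set of 1 probe per gene symbol plus the unnamed probes, adjusted by itself, gave 2691 up and 2205 down. Probes detected on 3 or more arrays of each group, also chosen after seeing the data, gave 5901 calls, 2526 up and 3375 down. The genotype difference was called for 464 probes, 759 with arrays scaled to equal medians and 719 with array batch as a block, and the cause was not tested. The difference in detected probes was 1668 to 2342 with 1 array left out. Among genes not called, Cyp4a14 was at 0.45 within batch 2, Stab1 at 0.09 with equal medians and 0.11 with no between-array normalization, Epor at -0.18 with equal medians of the included probes, and Vsig4 at -0.16 with equal medians of the included probes, at -0.26 within batch 2 and at -0.03, -0.05, -0.09 and -0.01 without treated replicates 1 and 3 and untreated replicates 2 and 5. Genes near background have the least precise changes.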

Other observations

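Solute carriers of the hepatocyte surface, which take up bile acids, amino acids and drugs, fell in 8 of 19 tested genes and rose in 3, but fell in 6 and rose in 7 with arrays scaled to equal medians. Of 17 tested genes of the tricarboxylic acid cycle 8 fell and 1 rose, with a median change of -0.27, but of -0.03 with equal array medians. Markers of natural killer and dendritic cells were mostly not tested, with 3 of 10 and 4 of 12 on the array passing the detection rule. The 3 had a summed signal of 489 to 683 on treated and 171 to 249 on untreated arrays, and the 4 one of 370 to 567 on treated and 148 to 192 on untreated arrays. Of these 1 and 3 were detected on 2 or fewer untreated arrays, so that they passed through the treated group, in which they are high. Bile duct markers and keratins had 1 of 5 tested genes up and 1 down.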
